A study of Gallus gallus with 10 samples.

Results

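The genes described here lie on chicken scaffolds that the Galgal4 genome assembly had not placed on any chromosome. They were chosen as all genes whose sequence name in the count table is not a number, Z, W, MT or a linkage group (LGE), and whose CPM (counts scaled to a common library total, expressed per 1000000 counted fragments) averaged 1 or more over the 10 libraries. The count table lists 17108 genes, of which 1128 lie on 901 such scaffolds, and 528 of these, on 413 scaffolds, reached the minimum. The other 600 did not, and 219 of those had no count in any library. The lowest members averaged 1.01 and 1.02 CPM, and the highest genes left out averaged 0.998 and 0.967 CPM. Genes on the numbered chromosomes above the same minimum, 11123 in all, served for comparison.

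The data are kidney RNA-seq libraries of 10 broiler chickens, 1 library per bird, taken 21 days post-hatch. The birds had been fed 0.8% Ca (3 birds, replicates 1, 3 and 4), 1.0% Ca (4 birds, replicates 1 to 4) or 1.2% Ca (3 birds, replicates 1 to 3), and shared breed, tissue and age. The study asked how dietary Ca alters gene expression in the kidney. The libraries held 6176553 to 7857813 counted fragments, so a gene at 1 CPM rests on 6 to 8 fragments. Lane 1 of the sequencer held all birds at 1.2% Ca together with replicates 1 and 2 at 1.0% Ca, and lane 2 held all birds at 0.8% Ca together with replicates 3 and 4 at 1.0% Ca. These lanes are those of the file headers and of the study's table of libraries, although its methods name only one lane. By them, lane and Ca can be separated only through the birds at 1.0% Ca. Kidney is a mixture of cell types, and in such samples fewer cells of a type and less RNA per cell cannot be told apart. The table gives gene identifiers without names, so kidney marker genes were not looked up.

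A genome assembly joins sequenced contigs into scaffolds and then assigns scaffolds to chromosomes. Pieces that are short, repetitive or hard to sequence stay unplaced. In the chicken, whose karyotype joins a few large macrochromosomes with many small, gene-dense microchromosomes, such pieces are known to come in large part from the microchromosomes and from tandem gene families, and the gene models on them are often cut off at a contig end.

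The gene models on these scaffolds were shorter than those on chromosomes. The median exon length was 1334 bases in members, against 2316 bases in numbered chromosome genes, and the median number of exons was 5 in members, against 9 in chromosome genes. Models under 500 bases made up 38 of the 528 members (7.20%), against 2.50% of chromosome genes, while single-exon models made up 2.84% of members, against 3.43% of chromosome genes. Many models lay close to the edge of their sequence. In 176 members (33.3%) the lowest position of the model, on either strand, lay within 50 bases of the first base of the scaffold. The other end of the scaffold was not examined. Of the members, 278 lie on contigs whose names begin with AADN and 250 on scaffolds whose names begin with JH. The models on AADN contigs were the shorter ones, with a median of 1146 exon bases, against 1618 bases on JH scaffolds. Of those on AADN contigs 130 (46.8%) lay that close to the first base, against 46 (18.4%) on JH scaffolds. On 355 scaffolds there was a single member. The span of 46 members overlapped that of another annotated gene, and the counting left out fragments shared by several genes, so the counts of these are uncertain. Fragments that aligned to several places were left out too, so members with a near-identical copy elsewhere may be undercounted.

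Per length of exon, unplaced scaffold genes were expressed at a lower level than chromosome genes in every bird. Levels between genes are given as TPM, which divides counts by exon length before scaling each library to the same total. The median member reached 20.7, 18.3 and 19.4 TPM at 0.8% Ca, 16.7, 17.5, 17.0 and 15.8 TPM at 1.0% Ca, and 15.5, 17.4 and 17.4 TPM at 1.2% Ca. The median chromosome gene lay between 30.05 and 32.01 TPM in all 10 birds. The difference of the medians was −0.82 ± 0.13 on the log2 scale (SD, n = 10 birds) and lay between −0.98 and −0.58. The minimum on CPM entered this difference, since it was −1.15 with a minimum of 0.5 CPM and −0.27 with a minimum of 5 CPM. Of the 528 members, 145 exceeded the chromosome median in TPM in all 10 birds. By definition that median has as many chromosome genes above it as below it in each bird. The count over all 10 birds was not taken for chromosome genes.

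The member with the highest level per length was ENSGALG00000026742 (AADN03016580.1, bases 4875 to 5903), a single-exon gene at 7873 ± 1009 TPM (SD, n = 10). It had 3258, 3008 and 3773 CPM in the birds at 0.8% Ca, 4428, 4074, 4503 and 4048 CPM at 1.0% Ca and 3861, 3931 and 4076 CPM at 1.2% Ca. All 4 birds at 1.0% Ca lay above all 3 at 0.8% Ca, and the birds at 1.2% Ca also lay above those at 0.8% Ca. The difference of 1.0% minus 0.8% Ca was 0.37 ± 0.10 (SE), with an adjusted p of 0.395 by the quasi-likelihood test and 0.0411 by DESeq2, which called it. Its slope was not past the threshold (0.24 ± 0.14 on the log2 scale, SE, adjusted p = 0.624, edgeR quasi-likelihood test). Here and in what follows a slope is the fitted log2 difference over the range of 0.8 to 1.2% Ca, tested at an adjusted p of 0.1.

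The second, ENSGALG00000026604 (AADN03010833.1, bases 3615 to 7013), averaged 7614 ± 1714 TPM and took the most counts of any member. It had 10518, 10555 and 10838 CPM in the birds at 0.8% Ca, 11161, 7559.8, 8399.8 and 6716 CPM at 1.0% Ca and 10233, 7437 and 5414 CPM at 1.2% Ca. The 3 birds at 0.8% Ca sat close together, while all birds at 1.2% Ca and 3 of the 4 at 1.0% Ca lay below them, and replicate 1 at 1.0% Ca lay above them. The slope was −0.47 ± 0.22 (SE, adjusted p = 0.572, quasi-likelihood test).

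The other 8 of the 10 most highly expressed members averaged between 358 and 1913 TPM. ENSGALG00000026852 and ENSGALG00000027227 averaged 1913 ± 211 TPM and 1350.0 ± 108 TPM, with slopes of 0.14 ± 0.12 and −0.08 ± 0.11. ENSGALG00000023973 and ENSGALG00000007197 varied more, at 809.9 ± 409.7 TPM and 709 ± 296 TPM. ENSGALG00000005124 (JH375182.1, bases 75792 to 94530) had 608, 415 and 392 CPM in the birds at 0.8% Ca, 383, 353, 424 and 415 CPM at 1.0% Ca and 315, 353 and 337 CPM at 1.2% Ca, so the bird of replicate 1 at 0.8% Ca stood above all others. Its span overlaps that of ENSGALG00000005117, so its counts are among the uncertain ones. ENSGALG00000026634, ENSGALG00000028472 and ENSGALG00000000439 averaged 391 ± 41.1 TPM, 378 ± 34.5 TPM and 358 ± 36.8 TPM, with ranges over the 10 birds of 119 to 174, 276 to 374 and 48.9 to 70.4 CPM.

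Counts on unplaced scaffolds took a smaller share of the library at higher Ca. Members received 3.17, 2.999 and 3.13% of counted fragments at 0.8% Ca, 3.11, 2.73, 2.87 and 2.59% at 1.0% Ca, and 2.81, 2.66 and 2.51% at 1.2% Ca. The group means were 3.10 ± 0.09% (SD, n = 3), 2.83 ± 0.22% (SD, n = 4) and 2.66 ± 0.15% (SD, n = 3). The 3 birds at 1.2% Ca all lay below the 3 at 0.8% Ca, whereas the birds at 1.0% Ca overlapped both groups. These sums describe the 10 libraries and carry no test. Much of the difference lay in 1 gene. ENSGALG00000026604 alone took 0.541 to 1.12% of all fragments. Without it the group means were 2.03 ± 0.09% at 0.8% Ca, 1.98 ± 0.05% at 1.0% Ca and 1.89 ± 0.09% at 1.2% Ca. Bird by bird, the other members took 2.12, 1.94 and 2.04% at 0.8% Ca, against 1.79, 1.92 and 1.96% at 1.2% Ca. The separation of these groups was then lost, since their ranges overlapped. The mean difference of 1.2% minus 0.8% Ca shrank to −0.14 percentage points without that gene, against −0.44 with it. Within lane 2 the share averaged 2.73% at 1.0% Ca and 3.10% at 0.8% Ca, and within lane 1 it averaged 2.66% at 1.2% Ca and 2.92% at 1.0% Ca.

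**Figure D1:**
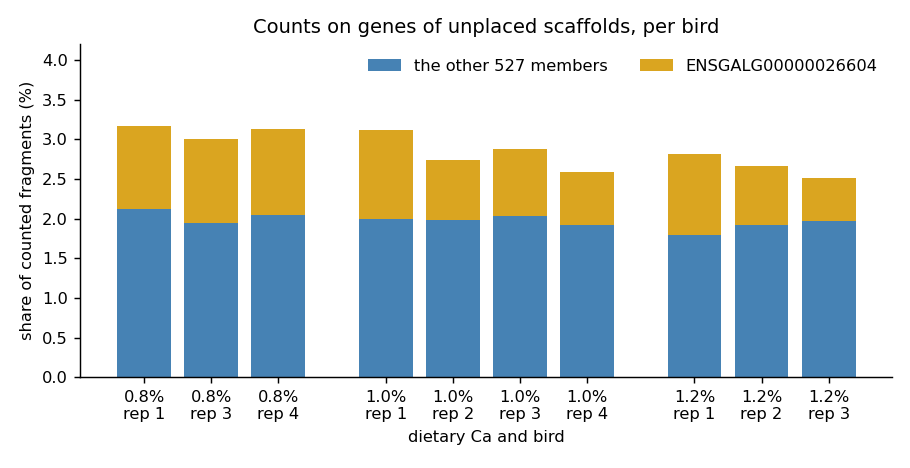
Share of counted fragments (%, vertical axis from 0) on unplaced scaffold genes in each of the 10 birds, split into ENSGALG00000026604 (upper part of the bar) and the other 527 members (lower part). The lower part stays between 1.79 and 2.12% in all birds, while the upper part runs from 0.541 to 1.12%.

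No member was called by the quasi-likelihood test in any comparison. The test covered 12187 genes that passed the filter on low counts, among them 516 of the 528 members, and 12 members were not tested. It called 0 members and 0% of all tested genes for the slope at an adjusted p of 0.1, and likewise 0 and 0% for 1.0% minus 0.8% Ca, 1.2% minus 0.8% Ca and 1.2% minus 1.0% Ca at an adjusted p of 0.05. The limma-voom test also called 0 members and 0% of all genes in all 4 comparisons. The likelihood ratio test of edgeR, which the study's methods name, called 5 members for the slope, 2 for 1.0% minus 0.8% Ca, 2 for 1.2% minus 0.8% Ca and 0 for 1.2% minus 1.0% Ca, where it called 0.287%, 0.181%, 0.156% and 0.0246% of all tested genes. DESeq2 called 9, 4, 4 and 0 members in the same order, against 0.46%, 0.246%, 0.345% and 0.0246% of all tested genes. The 3 pairs of groups share birds, so their counts are not independent of each other.

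At an unadjusted p under 0.05, more members were lower than higher at 1.0 and at 1.2% Ca relative to 0.8% Ca. For the slope, 96 of 516 members (18.6%) were lower at an unadjusted p under 0.05 and 5 were higher, while 5.76% of all tested genes were lower and 3.26% higher. Of the 104 tested genes on chromosome 25, 22 (21.2%) were lower, and on the other numbered chromosomes 2.29 to 12.9% were. For 1.0% minus 0.8% Ca, 85 members (16.5%) were lower and 5 higher, against 5.84% and 2.64% of all tested genes. For 1.2% minus 0.8% Ca, 99 members (19.2%) were lower and 6 higher, against 5.82% and 3% of all tested genes. For 1.2% minus 1.0% Ca the counts were small, with 8 members (1.55%) lower and 10 higher (1.94%), against 1.37% and 2.31% of all tested genes. The median log2 value of the members was −0.23 for the slope, −0.20 for 1.0% minus 0.8% Ca, −0.23 for 1.2% minus 0.8% Ca and −0.06 for 1.2% minus 1.0% Ca. The median over all tested genes was 0.0080, 0.012, 0.0081 and −0.0021 in the same order. Of the 516 members 402 (77.9%) had a slope below 0, against 48.4% of all tested genes and 78.8% of those on chromosome 25. In 64 members (12.4%) all 3 birds at 0.8% Ca lay above all 7 others, which held for 3.36% of all tested genes, and in 2 members all 3 lay below the others, which held for 1.26% of all tested genes.

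These counts and medians changed when single birds were left out. Without replicate 1 at 0.8% Ca the median slope was −0.18, and 62 members (11.8%) had an unadjusted p under 0.05 in either direction, against 5.04% of all tested genes. Without replicate 3 at 1.2% Ca the median slope was −0.29, and 148 members (28.4%) did, against 12.3% of all tested genes. The quasi-likelihood test then called 8 members (1.54%), against 0.357% of all tested genes. With lane as a covariate the median slope was −0.27, and 64 members (12.4%) had such a p, against 7.45% of all tested genes.

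For 1.2% minus 0.8% Ca 105 members (20.3%) had an unadjusted p under 0.05 in either direction, against 8.82% of all tested genes. The count became 68 (13%, against 5.35%) when replicate 1 of the 0.8% group was left out, also 68 (13.1%, against 6.22%) when replicate 2 of the 1.2% group was, and 69 (13.4%, against 7.79%) with lane as a covariate. For 1.2% minus 1.0% Ca the 18 members (3.49%, against 3.68%) became 30 (5.75%, against 4.47%) when replicate 1 of the 1.2% group was left out and 28 (5.37%, against 4.25%) when its replicate 3 was, and the median difference of the members was then −0.016 and −0.096. The 5 slope calls of the likelihood ratio test became 1 when replicate 1 of the 0.8% group or replicate 2 of the 1.2% group was dropped, where 0.0162% and 0.0243% of all tested genes were called. They became 35 (6.72%) when replicate 3 of the 1.2% group was dropped, against 1.78% of all tested genes.

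Values were also compared bird by bird. For each gene the log2(CPM + 0.5) value of a bird was set against the mean of that gene over the 10 birds, and the median of these differences was taken over the members. It was 0.24, 0.12 and 0.12 in the birds at 0.8% Ca, −0.05, −0.03, −0.06 and −0.10 at 1.0% Ca, and −0.17, −0.06 and 0.01 at 1.2% Ca. All 3 birds at 0.8% Ca lay above all 7 others, and the birds at 1.0 and 1.2% Ca overlapped. For numbered chromosome genes the same median stayed between −0.04 and 0.03 in all 10 birds. Within lane 2 the members' median averaged −0.08 at 1.0% Ca and 0.16 at 0.8% Ca. Within lane 1 it averaged −0.07 at 1.2% Ca and −0.04 at 1.0% Ca. Of the 4 birds at 1.0% Ca, replicates 1 and 2 averaged −0.04 in lane 1, and replicates 3 and 4 averaged −0.08 in lane 2.

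**Figure D2:**
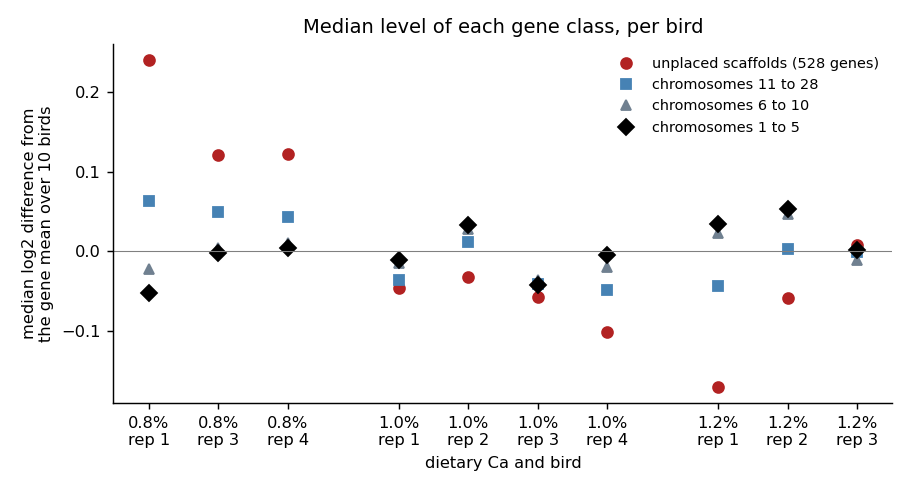
Median difference from the gene's own mean over 10 birds (log2 scale, vertical axis) for unplaced scaffold genes and for genes of chromosomes 11 to 28, 6 to 10 and 1 to 5, per bird and Ca group. The scaffold genes lie at 0.12 to 0.24 in the 3 birds at 0.8% Ca and at or below 0.01 in the other 7, and chromosome 11 to 28 genes are also highest in these 3 birds, over a smaller range.

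Among placed sequences, the slopes of unplaced scaffold genes were closest to those of the smallest chromosomes. The median slope was −0.06 over 3864 genes of chromosomes 11 to 28, 0.03 over 1923 genes of chromosomes 6 to 10 and 0.06 over 5230 genes of chromosomes 1 to 5. Over the 28 numbered chromosomes the median slope followed the length of the chromosome, taken as its last annotated base, with a Spearman rho of 0.96. This is a description over 28 points that share the same 10 libraries. Only 2 numbered chromosomes had a lower median than the members, namely chromosome 16 at −0.36 over 38 genes and chromosome 25 at −0.26 over 104 genes. The linkage group LGE22C19W28_E50C23, another short sequence, had a median of −0.17 over 31 genes. Chromosome 16 carries the major histocompatibility complex of the chicken. Members on AADN contigs and on JH scaffolds had medians close to each other, at −0.22 over 271 genes and −0.23 over 245 genes. The median was −0.23 over the 286 members above 10 CPM, of which 83.9% had a slope below 0.

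**Figure D3:**
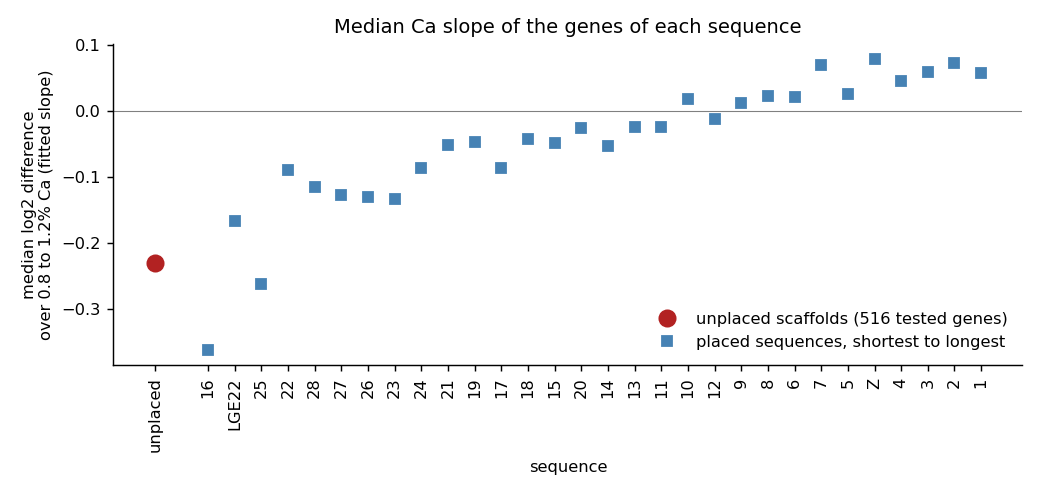
Median fitted slope (log2 difference over 0.8 to 1.2% Ca, vertical axis) of the tested genes of each sequence, with unplaced scaffolds at the left and placed sequences from the shortest to the longest to the right. The scaffold genes sit at −0.23, between chromosomes 16 and 25 at −0.36 and −0.26 and all other placed sequences, which run from −0.17 to 0.08.

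Slopes below 0 occurred on many scaffolds. Most members sit alone on their scaffold, but on JH375554.1 and JH376279.1, with 10 members each, 8 and 9 members had a slope below 0, with medians of −0.28 and −0.23. On JH375654.1 and JH376331.1, with 7 members each, and on JH375171.1 with 6 and JH375512.1 with 5, every member had a slope below 0. Of all tested members 77.9% did. Scaffolds with 4 members were mixed. A slope below 0 was found in 1 member on JH375192.1 and in 2 on JH375168.1, JH375182.1 and JH376285.1. On JH375221.1, where 3 of the 4 members were tested, a slope below 0 was found in 2. It was found in 3 on JH376180.1 and in 4 on JH375547.1 and JH376377.1. Adjacent members of the same scaffold had a higher median correlation than adjacent chromosome genes. Over 115 pairs of adjacent members the median Pearson r of log2(CPM + 0.5) across the 10 birds was 0.41, and 23 pairs had a negative r. Over 11095 adjacent pairs on numbered chromosomes the median r was 0.14, and 38.5% were negative. An r above 0.8 occurred in 10 member pairs (8.70%), against 3.23% of chromosome pairs. These correlations are descriptions over the same 10 birds, and neighbours with overlapping spans are among them. Correlations between members on different scaffolds were not computed. Variation shared by neighbours therefore cannot be told apart from variation shared by all members.

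The member with the smallest p for the slope was ENSGALG00000025893 (AADN03022230.1, bases 21 to 6345), with 5996 exon bases. It had 26.4, 26.6 and 26 CPM in the birds at 0.8% Ca, 19.5, 17.3, 16.4 and 17.2 CPM at 1.0% Ca and 17, 13.7 and 14.6 CPM at 1.2% Ca. The 3 birds at 0.8% Ca lay above all others and within 1 CPM of each other, and the other groups overlapped. The slope was −0.80 ± 0.14 (SE), with an adjusted p of 0.219 by the quasi-likelihood test and 0.00873 by the likelihood ratio test, which called it. Its difference of 1.2% minus 0.8% Ca was −0.79 ± 0.13 (adjusted p = 0.173 and 0.00397 by the same tests).

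ENSGALG00000029041 (AADN03010818.1, bases 4207 to 6452) had 92, 71 and 96.6 CPM in the birds at 0.8% Ca, 68.1, 58, 60.6 and 56.6 CPM at 1.0% Ca and 66.2, 48.5 and 45.3 CPM at 1.2% Ca. All 3 birds at 0.8% Ca exceeded the other 7, and the overlap between 1.0 and 1.2% Ca came from replicate 1 at 1.2% Ca. The slope of −0.70 ± 0.16 had an adjusted p of 0.387 by the quasi-likelihood test and 0.0686 by the likelihood ratio test. The span of this gene overlaps a locus in the study's tables of differentially expressed genes, a list chosen on these samples.

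ENSGALG00000027161 (AADN03026526.1, bases 40 to 1195) had 19.3, 18 and 16.1 CPM in the birds at 0.8% Ca, 15.3, 13.3, 11 and 7.24 CPM at 1.0% Ca and 8.99, 7.22 and 10.1 CPM at 1.2% Ca. The birds at 0.8% Ca were the highest 3 and those at 1.2% Ca overlapped the lower end of the birds at 1.0% Ca. The slope was −1.02 ± 0.24 (SE, adjusted p = 0.387 by the quasi-likelihood and 0.0686 by the likelihood ratio test).

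ENSGALG00000027181 (AADN03022718.1, bases 21 to 1571) had 15.4, 20.1 and 16.1 CPM in the birds at 0.8% Ca, 11.4, 10.6, 10.7 and 11.1 CPM at 1.0% Ca and 8.99, 8.81 and 11.8 CPM at 1.2% Ca, again with all birds at 0.8% Ca above the rest. Its slope was −0.80 ± 0.18 (adjusted p = 0.371 and 0.0928 by the quasi-likelihood and likelihood ratio tests). ENSGALG00000026377 (JH375547.1, bases 79206 to 80525) had a slope of −0.63 ± 0.14 (adjusted p = 0.371 and 0.142 by these tests), and its birds at 0.8% Ca, at 15.6 to 18.8 CPM, all lay above the others, at 10.3 to 12.7 CPM. DESeq2 called this slope, at an adjusted p of 0.0935. The fifth slope that the likelihood ratio test called was that of ENSGALG00000029177, which the naming rule does not cover and which is named here because of its call, at −1.43 ± 0.35 (adjusted p = 0.0686, likelihood ratio test).

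Between 1.0 and 0.8% Ca the smallest p belonged to ENSGALG00000028154 (AADN03019266.1, bases 353 to 1536). It had 5.18, 9.91 and 6.36 CPM in the birds at 0.8% Ca, 2.57, 1.7, 2.24 and 1.74 CPM at 1.0% Ca and 1.34, 1.88 and 3.44 CPM at 1.2% Ca. Every bird at 1.0% Ca lay below every bird at 0.8% Ca, and so did every bird at 1.2% Ca. The difference of 1.0% minus 0.8% Ca was −1.77 ± 0.36 (SE, adjusted p = 0.324 by the quasi-likelihood and 0.0123 by the likelihood ratio test).

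ENSGALG00000012102 (JH376323.1, bases 8190 to 37322) showed the same step at a higher level. It had 138, 138 and 131 CPM in the birds at 0.8% Ca, 88.2, 79.8, 99.7 and 89.7 CPM at 1.0% Ca and 70.2, 90 and 102 CPM at 1.2% Ca. The birds at 0.8% Ca stood clear of all others, and the other groups overlapped fully. The span of this gene overlaps that of ENSGALG00000014317, so its counts carry the uncertainty given above for such members. The difference was −0.58 ± 0.12 for 1.0% minus 0.8% Ca and −0.63 ± 0.13 for 1.2% minus 0.8% Ca, with adjusted p-values of 0.0401 and 0.0391 by the likelihood ratio test and 0.324 and 0.359 by the quasi-likelihood test. ENSGALG00000028844, also among the 3 smallest p for 1.0% minus 0.8% Ca, had a difference of −0.64 ± 0.14 (SE, adjusted p = 0.324, quasi-likelihood test), with all birds at 0.8% Ca above the rest.

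The members with the smallest p for 1.2% minus 1.0% Ca had higher values at 1.2% Ca. CDCA8, or borealin, is a subunit of the chromosomal passenger complex that acts on chromosome segregation in mitosis. Its gene model is ENSGALG00000022145 (AADN03023297.1, bases 98 to 4230), named after an overlapping locus in the study's tables, whose list was chosen on these samples. It had 27.4, 48.5 and 48 CPM in the birds at 0.8% Ca, 48.6, 55.6, 37.2 and 38.9 CPM at 1.0% Ca and 56, 105 and 86.2 CPM at 1.2% Ca. All 3 birds at 1.2% Ca lay above all others, and the birds at 0.8 and 1.0% Ca overlapped. The difference of 1.2% minus 1.0% Ca was 0.86 ± 0.24 (SE, adjusted p = 0.961, quasi-likelihood test), and the slope was 1.00 ± 0.27 (adjusted p = 0.4, quasi-likelihood test). ENSGALG00000000139 and ENSGALG00000000041 followed, with differences of 0.92 ± 0.27 and 0.36 ± 0.11 and an adjusted p of 0.961 for both in the quasi-likelihood test.

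Between birds, unplaced scaffold genes varied more than chromosome genes. The SD of log2(CPM + 0.5) over the 10 birds had a median of 0.31 in members, against 0.22 in chromosome genes, and a 90th percentile of 0.91 in members, against 0.55 in chromosome genes. Above 10 CPM the median SD was 0.24 in 286 members, against 0.18 in 8473 chromosome genes, and between 1 and 10 CPM it was 0.46 in 242 members, against 0.41 in 2650 chromosome genes. This SD ignores Ca group, so differences between the groups enter it. The biological coefficient of variation fitted by edgeR allows for counting error and for Ca group. It had a median of 0.197 in 516 members, against 0.153 in 11017 chromosome genes, and 0.323 in 38 genes of chromosome 16. At like abundance its medians were closer. Between 1 and 10 CPM it was 0.283 in members, against 0.279 in chromosome genes, and above 10 CPM 0.149, against 0.134. Within Ca groups, the median absolute distance of a gene from its group mean was larger in members than in chromosome genes in all 10 birds, by 0.0389 ± 0.0155 on the log2 scale (SD, n = 10). Among genes of 1 to 10 CPM this difference was 0.00698 and was negative in 4 of the 10 birds, so at low counts it was not visible. Above 10 CPM it was also smaller than over all genes. The classes differed in abundance, with 54.2% of members above 10 CPM, against 76.2% of chromosome genes.

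**Figure D4:**
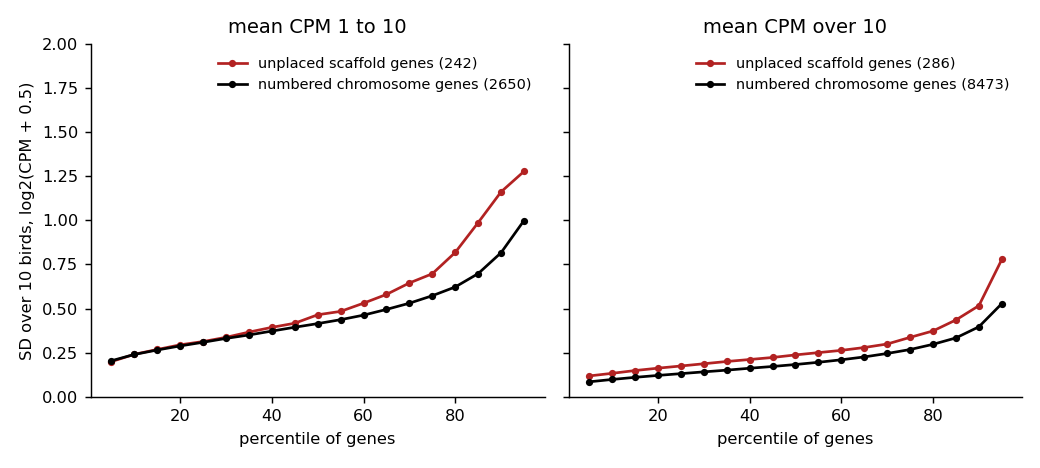
Standard deviation over 10 birds of log2(CPM + 0.5) at each percentile of genes (horizontal axis, %), for unplaced scaffold genes and numbered chromosome genes with mean CPM of 1 to 10 (left) and over 10 (right). The scaffold genes lie above the chromosome genes over the whole range on the right, with medians of 0.24 and 0.18, and on the left from percentile 10 upwards but not at percentile 5.

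Some members varied at least 8-fold over the birds. A gene was counted so where the highest bird had at least 2 CPM and at least 8 times the lowest, with 0.05 CPM added to the lowest. That held for 68 of 528 members (12.9%), against 437 of 11123 chromosome genes (3.93%). In both abundance classes the share was higher in members, with 24.0% against 13.1% of chromosome genes between 1 and 10 CPM and 3.497% against 1.07% above 10 CPM. On chromosome 16 it was 35.9% of 39 genes. In 21 of the 68 at least 1 bird had no count, in 58 the lowest bird had less than 1 CPM, and in 55 of the 68 the criterion was already met among birds of 1 Ca group. The highest bird was one of the 3 at 0.8% Ca in 20 of them, of the 4 at 1.0% Ca in 31 and of the 3 at 1.2% Ca in 17. Single birds weighed heavily, with replicate 3 at 1.0% Ca highest in 14 and replicate 1 at 0.8% Ca in 11. No other bird was highest in more than 9. The other 455 tested members had a median slope of −0.23.

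ENSGALG00000028268 (AADN03010737.1, bases 21 to 2317) had the largest SD, 2.27. It had 0.648, 0.601 and 16 CPM in the birds at 0.8% Ca, 0, 47.7, 11.5 and 3.89 CPM at 1.0% Ca and 22, 1.16 and 0.636 CPM at 1.2% Ca. High and low birds occurred in every Ca group, so the groups overlapped fully. ENSGALG00000028245 (AADN03010684.1, bases 2480 to 7309), with an SD of 2.24, had 37.2, 41.7 and 73.3 CPM in the birds at 0.8% Ca, 14, 62.8, 1.19 and 96.8 CPM at 1.0% Ca and 35.2, 6.35 and 0.764 CPM at 1.2% Ca. The lowest values were those of replicate 3 at 1.0% Ca and of replicates 2 and 3 at 1.2% Ca, no bird at 0.8% Ca was low, and the groups overlapped. The slope was −1.79 ± 1.26 (SE, adjusted p = 0.69, quasi-likelihood test). This gene also overlaps a locus that the study lists.

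ENSGALG00000024340 (JH375207.1, bases 7101 to 9133) overlaps a listed locus too. It had 3.4, 2.7 and 24.6 CPM in the birds at 0.8% Ca, 2.9, 102, 53 and 1.07 CPM at 1.0% Ca and 17.8, 6.5 and 4.836 CPM at 1.2% Ca. Replicates 2 and 3 at 1.0% Ca stood far above replicates 1 and 4 of the same group. ENSGALG00000027431 (AADN03010681.1, bases 349 to 1273) had 0, 3.6 and 2.82 CPM in the birds at 0.8% Ca, 0, 16, 27.9 and 1.34 CPM at 1.0% Ca and 2.15, 13.9 and 9.04 CPM at 1.2% Ca. Its highest birds were again replicates 2 and 3 at 1.0% Ca, and replicate 1 had no count at either 0.8 or 1.0% Ca. ENSGALG00000027661 (AADN03010586.1, bases 1774 to 5343) had 4.7, 0 and 0.141 CPM in the birds at 0.8% Ca, 11.6, 8.91, 10.1 and 1.47 CPM at 1.0% Ca and 1.61, 0.144 and 13.4 CPM at 1.2% Ca, with at least 1 low bird in every Ca group.

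The remaining 5 of the 10 most variable members, ENSGALG00000028728, ENSGALG00000004617, ENSGALG00000026292, ENSGALG00000013587 and ENSGALG00000022430, had SDs of 1.55 to 1.78. None of these 10 genes passed the threshold in the quasi-likelihood test of the slope. ENSGALG00000013587 had 40.6 CPM in replicate 4 at 1.0% Ca, against 0.448 to 15.4 CPM in the other 9 birds. ENSGALG00000028728 had no count in replicates 2 and 3 at 1.0% Ca and up to 11.1 CPM elsewhere.

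**Figure D5:**
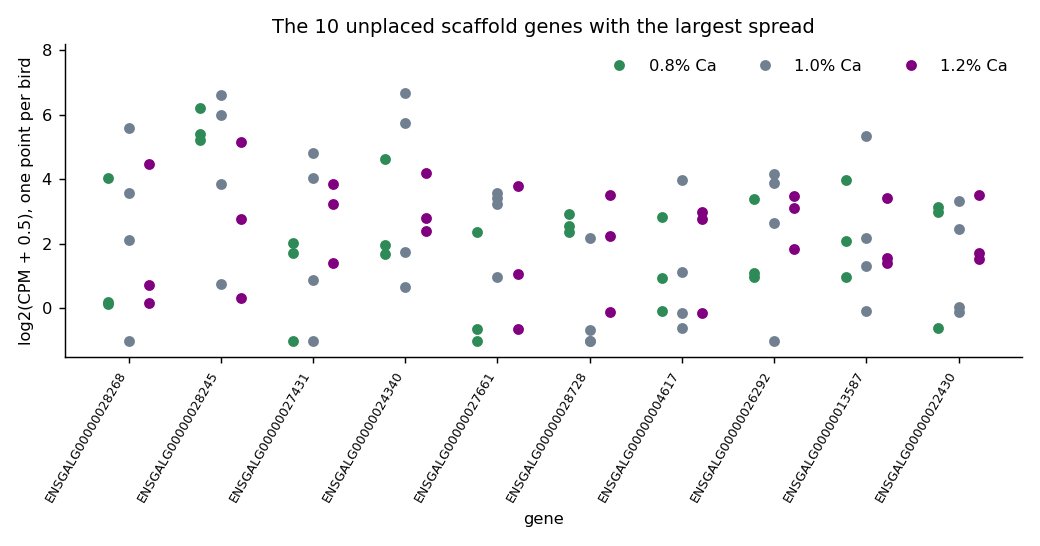
Expression as log2(CPM + 0.5) in each bird (one point per bird, coloured by Ca group) of the 10 unplaced scaffold genes with the largest SD, ordered from left to right by SD. In most of these genes birds of the same Ca group are separated by several log2 units, and the 3 Ca groups overlap.

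Members were matched to the loci in the study's own tables of changed genes only by overlap of positions, without regard to strand. Those tables hold 53 loci on unplaced scaffolds, and how many genes of the whole count table match a locus was not counted. The matching gave 14 members, of which 5 could be given the name of the overlapping locus. These genes were chosen on these same libraries, so their values are descriptions. FCGBP, which in mammals encodes a large mucus-associated protein that binds the Fc part of IgG, corresponds to ENSGALG00000012531 (AADN03018760.1, bases 360 to 10879) and had 31.2, 179 and 78.5 CPM in the birds at 0.8% Ca, 172, 335, 36.1 and 106 CPM at 1.0% Ca and 50.3, 165 and 35.4 CPM at 1.2% Ca. Its lowest bird was at 0.8% Ca and its highest at 1.0% Ca, and the 3 groups overlapped. C3d, matched to ENSGALG00000011509 with 33 exons, had 126, 73.9 and 57.2 CPM in the birds at 0.8% Ca, 50.8, 51.2, 30.4 and 41.7 CPM at 1.0% Ca and 43.6, 78.3 and 81.1 CPM at 1.2% Ca, with the highest value in replicate 1 at 0.8% Ca. Every bird at 1.0% Ca lay below every bird at 0.8% Ca, and the birds at 1.2% Ca overlapped both groups. The difference of 1.0% minus 0.8% Ca was −0.96 ± 0.30 (SE, adjusted p = 0.442, quasi-likelihood test). The gene named 17.5 (ENSGALG00000009761) ranged from 12 to 37.2 CPM with all groups overlapping. HMGA1, an architectural chromatin protein, matched ENSGALG00000029009, a model of 108 exon bases with 2.85 to 4.33 CPM.

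Of the 9 without a name, ENSGALG00000027312 had 11.2, 9.46 and 12.7 CPM in the birds at 0.8% Ca, 13.5, 10, 32.5 and 37.7 CPM at 1.0% Ca and 8.72, 24.3 and 44.7 CPM at 1.2% Ca, with a slope of 1.19 ± 0.63 (SE, adjusted p = 0.591, quasi-likelihood test). ENSGALG00000018401 had 0, 0.15 and 0.141 CPM in the birds at 0.8% Ca, 0.322, 0.848, 0.448 and 0.134 CPM at 1.0% Ca and 10.1, 2.89 and 1.27 CPM at 1.2% Ca, so that all birds at 1.2% Ca were above all others, but it was among the 12 members with too few counts to be tested. Its group means were 0.0971, 0.438 and 4.74 CPM. It reached the minimum of 1 CPM only through the birds at 1.2% Ca, so its selection favoured this order. ENSGALG00000025779, with 46 exons, ranged from 6.44 to 89.7 CPM, and ENSGALG00000027445 and ENSGALG00000000194 reached 12.2 and 37.8 CPM in their highest birds, both at 1.0% Ca. ENSGALG00000023973, described above among the most highly expressed members, also overlaps a listed locus.

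Unplaced scaffolds can also hold pieces of chromosome W, the sex chromosome that only hens carry. The 16 genes of the table on chromosome W were nearly without counts, with a sum of 0.161 to 4.03 CPM per bird and a single gene averaging 0.1 CPM or more. Over the 10 birds 0 members had a Pearson r above 0.8 with that sum and 1 had an r below −0.8, a description that rests on very low W counts.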

How the data were processed

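Kidney RNA of 10 broilers was sequenced, 1 library per bird. The authors trimmed the reads, mapped them with HISAT2 2.0.4 to the Galgal4 assembly, and used featureCounts 1.5.0-p3 to sum fragments by Ensembl gene (exons of release 84). The deposited values are whole-number counts without normalization, and the command set no strand option. The sample labels name a stranded kit, which the methods do not.

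From these counts CPM (count over library total) and TPM (per exon length) were computed. Genes were filtered with filterByExpr, scaled by TMM and fitted in edgeR 4.0.16 under R 4.3.3, with a quasi-likelihood test on Ca as a number or as a group. Two-sided p-values received a Benjamini-Hochberg adjustment over the 12187 tested genes, with thresholds of 0.1 for the slope and 0.05 for pairs. The fits were repeated with limma-voom (limma 3.58.1), DESeq2 1.42.0, the likelihood ratio test of edgeR, other scalings and filters, lane, the replicate number as a block, and each library left out. The fitting code was tested on simulated data. Shares, medians and spreads over the members are descriptions without p-values. Figures and tables were made with Python 3.11.15.

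The members and gene lists were chosen with earlier results of these data known. Named are members called by the quasi-likelihood test (0), the 10 highest in TPM and the 10 with the largest SD. The 14 that overlap a locus in the study's tables are named too. So are those with the 5 smallest p for the slope and the 3 smallest for each pair, and the scaffolds with most members. Others are said to be named after their values were seen. Same-numbered birds did not deviate together (2 of 8 pairs of libraries had a correlation above 0.1), so the numbers were not taken as pairs. Of the table's identifiers 0 matched the RefSeq gene table at hand.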

Additional observations from a re-analysis of the deposited data

Results flagged for a closer look

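Among 45 values examined in the 4 birds at 1.0% Ca, 3 had 1 bird far from the other 3 by Dixon's test, which chance gives in about 1 group in 20. The count of 3 among 45 is close to that rate. All were CPM values, not on a log scale, of members with the largest spread. These members were chosen on the same birds, a choice that favours genes with an outlying bird. ENSGALG00000013587 had 40.6 CPM in replicate 4, against 0.448 to 4.02 CPM in the other 3 birds. ENSGALG00000028728 had 4.02 CPM in replicate 1, against 0 to 0.134 CPM in the others. ENSGALG00000004617 had 15.2 CPM in replicate 3, against 0.161 to 1.70 CPM in the others. The outlying bird was a different one each time.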

How the results depend on the processing

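The quasi-likelihood test called 0 members in every comparison. The likelihood ratio test called 5 for the slope, 2 for 1.0% minus 0.8% Ca and 2 for 1.2% minus 0.8% Ca, and DESeq2 called 9, 4 and 4. Leaving out 1 library gave 0 to 8 quasi-likelihood calls for the slope, the 8 without replicate 3 at 1.2% Ca (1.54% of members, against 0.357% of all tested genes), and 0 for each pair. The likelihood ratio test then called 1 to 35 members for the slope, 0 to 14 for 1.2% minus 0.8% Ca, 0 to 5 for 1.0% minus 0.8% Ca and 0 to 4 for 1.2% minus 1.0% Ca. The highest counts came without replicate 3 at 1.2% Ca (6.72%, 2.69% and 0.96% of members, against 1.78%, 0.713% and 0.381% of all tested genes), except the 4, which came without replicate 1 at 1.2% Ca (0.766%, against 0.438%). For 1.2% minus 0.8% Ca the 0 came when either the 0.8% group lacked replicate 1 or the 1.2% group lacked replicate 2 (0.0162% and 0% of all tested genes), and for 1.0% minus 0.8% Ca when either the 0.8% group lacked replicate 3 or the 1.0% group lacked replicate 4 (0.0729% and 0.0247%). With lane as a covariate it called 3 for the slope (0.581%, against 0.525%). With the replicate number as a block, the quasi-likelihood test called 0 members, 77 (14.9%, against 6.52% of all tested genes) had an unadjusted p under 0.05 for the slope, and the likelihood ratio test called 2 for the slope (0.388%, against 0.0656%). These counts at an unadjusted p and those of the likelihood ratio test under alternatives were added after seeing the data. The median slope of the members stayed below 0 in all alternatives, from −0.29 to −0.18.

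Without the most abundant member the share of counts differed by −0.14 percentage points over the Ca range, −0.053 for 1.0% minus 0.8% Ca and −0.14 for 1.2% minus 0.8% Ca. With 1 library left out the slope of the share ranged from −0.52 to −0.38, and the differences between pairs of groups stayed negative. The level of members relative to chromosome genes was −1.15, −0.27 and −1.51 on the log2 scale with a minimum of 0.5 CPM, a minimum of 5 CPM and no correction for length. The difference in spread was 0.0222 with a minimum of 5 CPM, 0.00698 for genes of 1 to 10 CPM and 0.0198 above 10 CPM. The share of members with a wide range over the birds, 12.9% at 8-fold, was 22.3% at 4-fold, 7.95% at 16-fold and 9.47% with 5 CPM in the highest bird, against 9.80%, 1.85% and 2.64% of chromosome genes. The slope of ENSGALG00000026852 was −0.027 with lane as a covariate and 0.14 without it, neither past the threshold. The cause of these differences was not tested. At 1 CPM a value rests on few fragments, which limits what the lowest members can show.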
